A study of Mus musculus with 6 samples.

Results

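The genes described here are the matrix metalloproteinases (Mmp), their tissue inhibitors (Timp) and the 2 related protease families named Adam and Adamts. They were chosen by gene symbol alone, as every row whose symbol starts with Mmp, Timp, Adam or Adamts followed by a digit, which gave 78 of the 24617 rows of the deposited table: 23 Mmp, 4 Timp, 32 Adam and 19 Adamts genes. RNA enriched for mRNA came from the distal colon of male mice aged 8 weeks, with 3 wildtype C57Bl/6 mice and 3 TNFR2-knockout mice whose strain is also labelled C57Bl/6. No treatment is labelled for either group. The sources used here do not give how the knockout allele was made, in which cells it acts, or whether the groups were littermates. Values are FPKM, read fragments divided by the length of the transcript and by the library's mapped total, so levels of different genes can be compared per length.

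Matrix metalloproteinases are zinc-dependent enzymes that cut collagens, proteoglycans and other proteins of the extracellular matrix, and most are made as inactive precursors. TIMP proteins bind their active site and block it. ADAM proteins sit in the membrane and, where they are catalytic, cut other membrane proteins loose from the cell, whereas secreted ADAMTS enzymes trim procollagens and proteoglycans in the matrix. ADAM17 releases tumor necrosis factor (TNF) from the membrane and also sheds its receptors, TNFR2 among them. In the gut wall, most of these genes are known from fibroblasts, smooth muscle and macrophages of the connective tissue, and fewer from the epithelium.

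Tnfrsf1b, the gene of TNFR2, measured 7.49, 8.20 and 8.17 FPKM in the wildtype mice and 1.17, 1.12 and 0.924 FPKM in the knockout mice, a log2 difference of -2.11 ± 0.08 (SE; limma, Benjamini-Hochberg adjusted p = 7.1e-05), so each library carried the value its label implies. The design states an average of 50M paired-end reads of 50 bases per sample; the depth of single libraries is unknown from FPKM. The libraries differed in markers of tissue other than the colon wall: the median of 15 skin genes spanned 31.2 to 85.5 FPKM in wildtype mice and 4.84 to 68.3 FPKM in knockout mice, and that of 10 skeletal muscle genes 94.2 to 330.1 and 3.70 to 80.2 FPKM. Genes of the colon itself were plentiful, with medians of 222 to 331 FPKM for 11 epithelial genes and 394 to 639 FPKM for 10 smooth muscle genes over all libraries.

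No matrix protease or inhibitor gene passed the test between genotypes, yet most had lower means in the knockout colon. Of the 78 genes, 41 reached a mean of 0.5 FPKM over the 6 libraries and were tested. None of the 41 was called in limma at a Benjamini-Hochberg adjusted p under 0.05, against 0.288% of all 14564 rows tested, and the smallest adjusted p among them was 0.218, for Adamts2. At an unadjusted p under 0.05 there were 12 of the 41, 11 lower in the knockout (26.8%, against 9.91% of all rows) and 1 higher (2.44%, against 6.3%). The mean on the log2(FPKM + 1) scale was lower in the knockout for 35 of the 41 genes (85.4%), against 57.4% of all rows. The median log2 difference was -0.15 over the 41 genes and -0.03 over all rows. The authors' deposited table has no member with an adjusted p under 0.05 and 3 with a p under 0.05, Adamts1, Timp3 and Timp2.

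All 3 knockout libraries lay below all 3 wildtype libraries for 12 of the 41 genes, 29.3%, against 12.5% of all rows tested. The reverse held for 1 gene, Timp4, against 9.3% of all rows. The 12 were Adamts2, Timp1, Mmp19, Timp3, Adam8, Mmp23, Mmp14, Adamts14, Mmp2, Adamts4, Adam9 and Mmp28. By family, 5 of 12 tested Mmp genes, 2 of 4 Timp genes, 2 of 11 Adam genes and 3 of 14 Adamts genes were in this group. An exact permutation test of 3 against 3 libraries cannot give a p below 0.1, so no single gene can pass by that test.

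This count moved by more than 1.5 times under 3 of the alternatives. After quantile normalization 7 of the 41 genes lay lower without overlap (17.1%, against 7.92% of all rows). Means were lower for 29 (70.7%, against 43.2% of all rows), and the median was -0.06, with 0.03 over all rows. Without wildtype library 2 the count was 24 (27.2% of all rows), and without knockout library 2 it was 20 (19.8%).

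**Figure D1:**
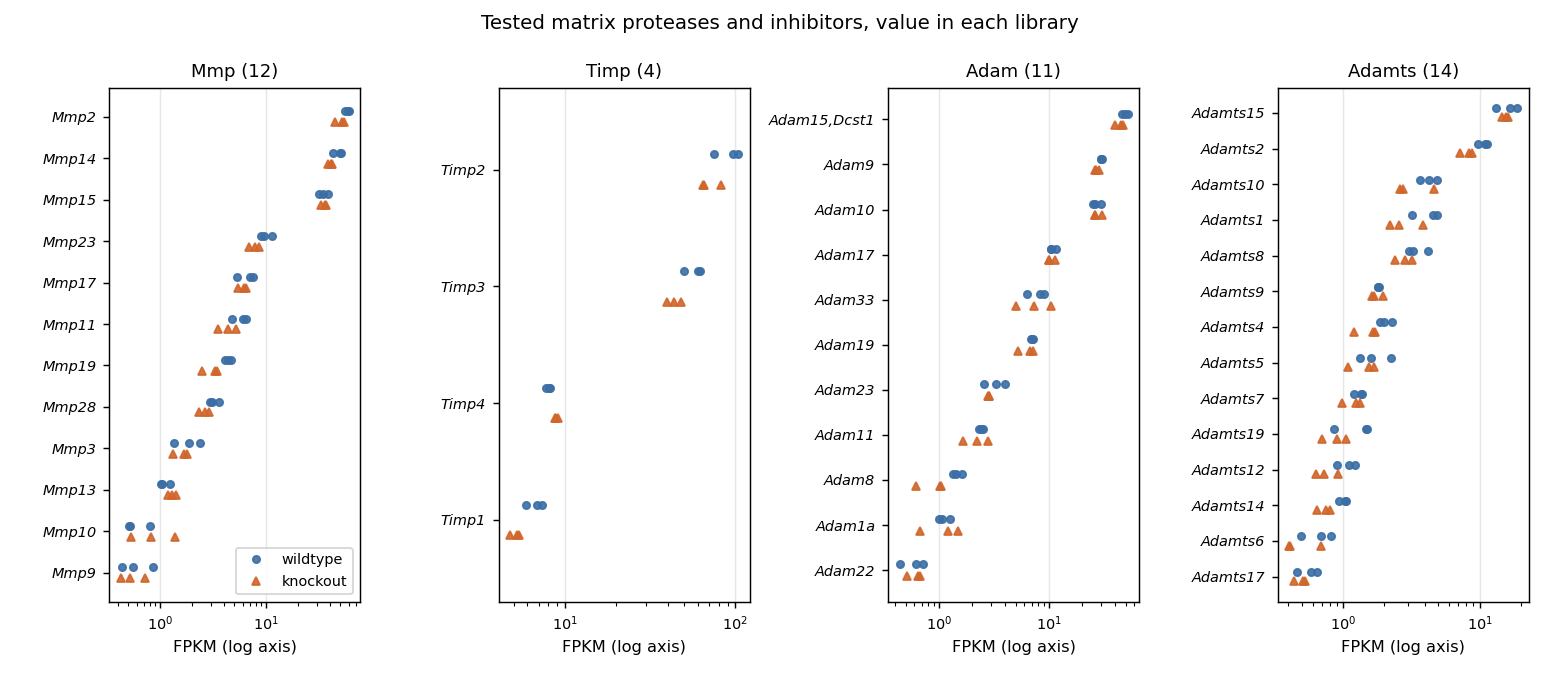
FPKM on a log axis for the 41 tested genes, 1 panel per family, with wildtype libraries as circles and knockout libraries as triangles. Timp2 at 64.2 to 104 FPKM is the highest member, and the groups of Timp1, Timp3, Adamts2 and Mmp19 are apart while those of Adam10, Adam17 and Mmp15 lie over each other.

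**Figure D2:**
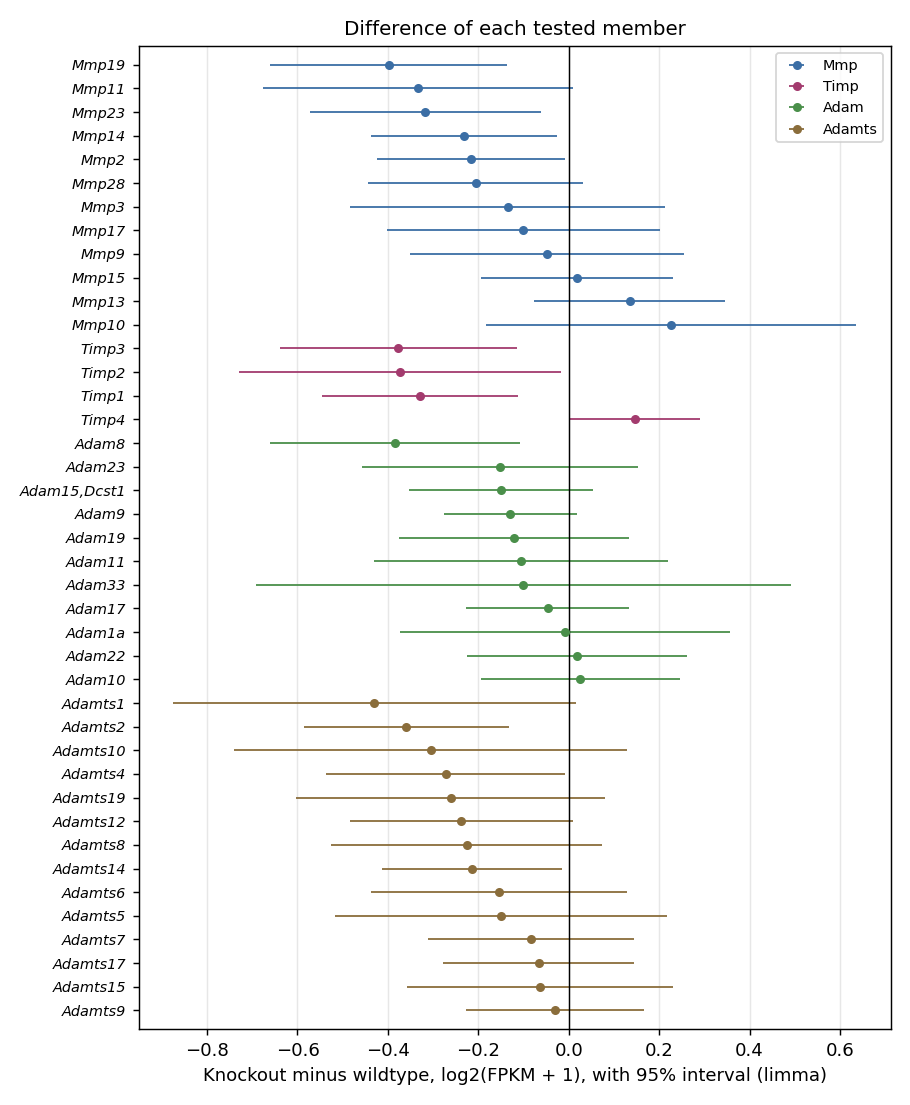
Knockout minus wildtype difference on the log2(FPKM + 1) scale for each tested gene, with the 95% interval from limma, grouped by family. Points run from -0.43 (Adamts1) to 0.23 (Mmp10), and 35 of 41 lie left of 0.

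The inhibitors showed opposite orders: Timp1, Timp2 and Timp3 had knockout means at 76.3%, 76.7% and 76.5% of wildtype, and Timp4 stood at 112%. Timp2, which both blocks MMP2 and helps MMP14 to activate it, measured 104, 75.0 and 97.3 FPKM in the wildtype mice and 65.5, 82.4 and 64.2 FPKM in the knockout mice. The groups overlap, because wildtype library 2 lies below knockout library 2. Timp3, which binds to the matrix and also inhibits ADAM17, measured 60.2, 50.0 and 61.9 FPKM in wildtype mice and 43.9, 48.3 and 39.6 FPKM in knockout mice. Timp1, an inducible soluble inhibitor, measured 6.81, 5.93 and 7.36 FPKM against 5.22, 5.36 and 4.76 FPKM. For Timp3 and Timp1 every knockout library is below every wildtype library, with the closest values in wildtype library 2 and knockout library 2. Timp4 measured 8.02, 7.73 and 8.12 FPKM in wildtype mice and 9.11, 8.87 and 8.76 FPKM in knockout mice, with all 3 knockout values above.

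The log2 differences were -0.37 ± 0.15 for Timp2, -0.38 ± 0.11 for Timp3, -0.33 ± 0.09 for Timp1 and 0.15 ± 0.06 for Timp4 (SE, n = 3 each), and none passed (limma, Benjamini-Hochberg adjusted p = 0.297, 0.234, 0.223 and 0.302). In wildtype library 2 against knockout libraries 2 and 3, whose mean skin levels were 4.18, 4.43 and 5.16 on the log2(FPKM + 1) scale, the log2 differences of Timp2, Timp3 and Timp1 were -0.04, -0.19 and -0.19. That comparison has a lone wildtype library and no test. It is not matched for skin level. Wildtype libraries 1 and 3, left out, stood at 5.35 and 5.44, nearer to knockout library 3 than wildtype library 2. Knockout library 1, also left out, stood at 2.18.

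Timp1, Timp3 and Timp4 each lie inside a synapsin gene on the opposite strand, so reads of gene and host could be shared if the libraries did not keep the strand, and the sources used here do not say whether they did. Timp1 (mm10 chromosome X, 20870166 to 20874735, plus strand) lies within Syn1, Timp3 (chromosome 10, 86300372 to 86349506, plus strand) within Syn3 and Timp4 (chromosome 6, 115241892 to 115252205, minus strand) within Syn2. In the GENCODE annotation Timp1 shares no exon base with its host, Timp4 shares 90 and Timp3 shares 1733. The deposited loci of these rows are wider than the genes and reach over most or all of each host. They run from 20848542 to 20920918 for Timp1, from 86048745 to 86498896 for Timp3 and from 115134901 to 115282626 for Timp4. Whether host reads entered these values was not tested. The hosts, which encode proteins of synaptic vesicles, measured 1.23 ± 0.188 and 1.09 ± 0.164 FPKM for Syn1, 0.446 ± 0.0705 and 0.484 ± 0.0541 FPKM for Syn3, and 5.77 ± 0.221 and 5.81 ± 0.141 FPKM for Syn2 in wildtype and knockout libraries (SD, n = 3 each). The level of Syn2 is of the order of that of Timp4, while Syn3 is far below Timp3.

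The upstream sequences of these inhibitors, and of the procollagen protease gene Adamts2, which had the smallest p of all members, are shown because the account of inhibitors and matrix assembly turns on these genes. They are the last 150 bases upstream of each start that lie outside annotated exons, from RefSeq windows on GRCm38.p6, the assembly of mm10, 5′ to 3′ on the gene's strand. Capitals mark GGGCGG on either strand, the core of a GC box.
Timp1, chrX:20870016-20870165, plus strand: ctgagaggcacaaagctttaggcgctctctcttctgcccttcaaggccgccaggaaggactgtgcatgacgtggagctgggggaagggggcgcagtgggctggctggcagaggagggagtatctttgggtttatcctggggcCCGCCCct
Timp3, chr10:86300222-86300371, plus strand: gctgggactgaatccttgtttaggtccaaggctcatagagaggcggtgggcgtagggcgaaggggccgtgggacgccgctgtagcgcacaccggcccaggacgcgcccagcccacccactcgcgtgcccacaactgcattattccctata
Timp4, chr6:115252206-115252355, minus strand: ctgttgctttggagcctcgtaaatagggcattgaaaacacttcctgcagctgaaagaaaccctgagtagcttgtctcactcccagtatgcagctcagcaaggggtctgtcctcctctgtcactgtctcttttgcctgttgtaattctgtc
Adamts2, chr11:50601934-50602083, plus strand: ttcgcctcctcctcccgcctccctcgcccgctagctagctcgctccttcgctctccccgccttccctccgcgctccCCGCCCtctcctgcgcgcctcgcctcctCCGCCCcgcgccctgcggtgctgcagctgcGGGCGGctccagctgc
Adamts2 holds 3 such matches in the bases shown, Timp1 holds 1, and Timp3 and Timp4 hold none there. Timp3 has 1 nearer its RefSeq start, at -15, in bases not shown. GGGCGG occurs in 32.9% of the 27025 promoters of the same table, 1 per symbol, searched over 250 bases upstream, and in 20 of the 48 members (41.7%) with an entry.

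Among the metalloproteinases, the gelatinase Mmp2 and the membrane-bound Mmp14, which activates it, were the most abundant. Mmp2 (chromosome 8, 92827291 to 92853420) measured 60.5, 55.5 and 59.7 FPKM in wildtype mice and 52.4, 53.7 and 45.0 FPKM in knockout mice. Mmp14 (chromosome 14, 54431612 to 54445364) measured 51.1, 42.7 and 49.2 FPKM against 42.2, 40.5 and 38.4 FPKM. In both genes the knockout values are lower without overlap, by a narrow gap between the closest libraries. The log2 differences were -0.22 ± 0.09 and -0.23 ± 0.09 (SE; limma, Benjamini-Hochberg adjusted p = 0.297 and 0.279). Mmp2 stood at 1.23 ± 0.0599 times Mmp14 in wildtype and 1.25 ± 0.0758 times in knockout libraries (SD, n = 3 each), so their ratio was within the spread between mice.

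Mmp15, a second membrane-type enzyme, showed no such order. It measured 31.7, 38.6 and 34.0 FPKM in wildtype mice and 36.7, 33.1 and 35.7 FPKM in knockout mice, with a log2 difference of 0.02 and a 95% interval from -0.19 to 0.23 (limma, Benjamini-Hochberg adjusted p = 0.936). Mmp17, a membrane-type enzyme held by a lipid anchor, measured 7.55, 5.28 and 6.96 FPKM against 5.47, 6.42 and 6.22 FPKM, and its groups overlap (limma, Benjamini-Hochberg adjusted p = 0.711). The other membrane-type genes, Mmp16, Mmp24 and Mmp25, averaged 0.427, 0.128 and 0.0759 FPKM over the 6 libraries and were not tested.

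Mmp19 and Mmp23, which stand outside the main subgroups of the family, were also lower without overlap. Mmp19, a secreted enzyme (chromosome 10, 128790910 to 128800824) measured 4.62, 4.10 and 4.38 FPKM in wildtype mice and 3.45, 3.32 and 2.499 FPKM in knockout mice, 70.8% of wildtype. Mmp23 measured 11.3, 8.92 and 9.55 FPKM against 7.89, 8.49 and 6.91 FPKM. Both sets of knockout values lie below all wildtype values. The log2 differences were -0.40 ± 0.11 and -0.32 ± 0.11 (SE; limma, Benjamini-Hochberg adjusted p = 0.223 and 0.270). Mmp11, a stromelysin of stromal cells, measured 5.71 ± 0.872 and 4.33 ± 0.827 FPKM, and Mmp28, an epilysin, 3.18 ± 0.325 and 2.63 ± 0.305 FPKM (SD, n = 3 each). Mmp9, the other gelatinase and an enzyme of neutrophils and macrophages, was low in both genotypes, with 0.609 ± 0.213 and 0.552 ± 0.152 FPKM, and Mmp21 averaged 0.00902 FPKM.

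Near the start of chromosome 9, 10 Mmp genes lie side by side over 427 kb (mm10, 7272514 to 7699585), and in this colon all were low or listed at 0. Mmp3, a stromelysin, was the highest, with 2.35, 1.36 and 1.89 FPKM in wildtype mice and 1.79, 1.68 and 1.31 FPKM in knockout mice. Mmp13, a collagenase, measured 1.03, 1.02 and 1.23 FPKM against 1.42, 1.29 and 1.18 FPKM. Mmp10, a stromelysin made by epithelium and macrophages, measured 0.507, 0.523 and 0.800 FPKM against 1.39, 0.816 and 0.529 FPKM. Mmp10 and Mmp13 had the highest log2 differences of the Mmp family, 0.23 ± 0.17 and 0.13 ± 0.09 (SE; limma, Benjamini-Hochberg adjusted p = 0.531 and 0.474), but their groups overlap and without knockout library 1 the Mmp10 difference was 0.054. Mmp12, the macrophage elastase, averaged 0.431 FPKM over the 6 libraries. Mmp27, Mmp7, Mmp8 and Mmp20 averaged under 0.1 FPKM, and the collagenase genes Mmp1a and Mmp1b are listed at 0 in all 6 libraries. In the annotation Mmp12 and Mmp1b overlap at their ends on opposite strands. MMP7, matrilysin, is a product of Paneth cells, which the mouse colon lacks.

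**Figure D3:**
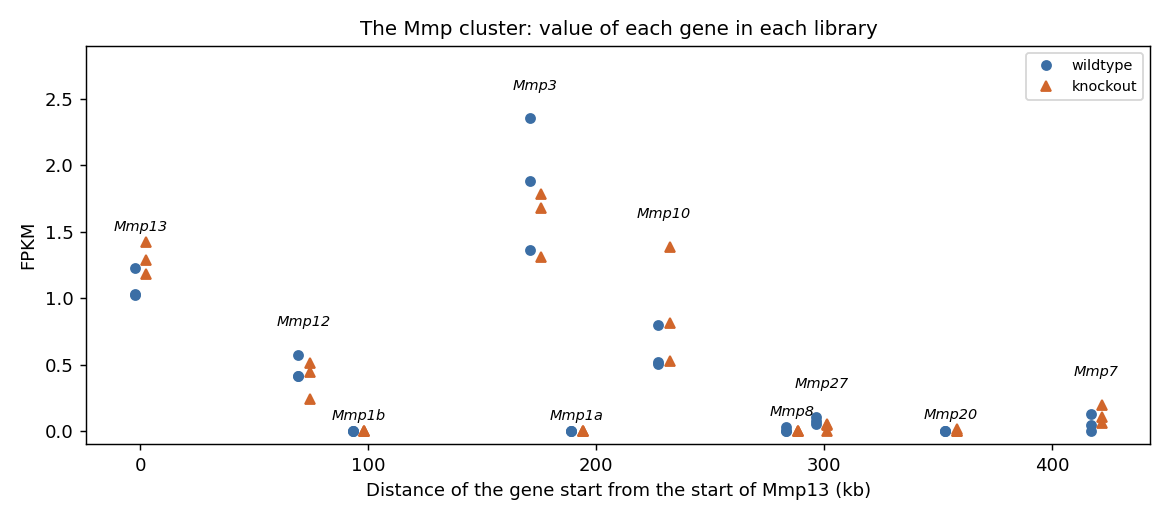
FPKM of the 10 Mmp genes of the chromosome 9 cluster in each library, by the distance of the gene start from that of Mmp13 in kb, with wildtype as circles and knockout as triangles. Only Mmp3, Mmp13 and Mmp10 reach 1 FPKM in any of the 6 libraries, and the 2 groups overlap in all 3.

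The promoters of this cluster shared letters that the gene symbols did not select for, and the cluster was singled out after its promoters were seen. TGANTCA is a looser form of the core bound by AP-1 transcription factors, open at the middle base where that core has C or G. It lies on either strand within 250 bases upstream of the RefSeq start in 7 of the 10. That is against 2 of the 38 other members with an entry and 6.87% of all promoters. The same 7 also hold TATAAA, which 13.0% of all promoters do. Both occur together in 1.32% of all promoters and in 1 of the 38 other members. The sequences are shown to let the spacing be read, with both motifs in capitals. The TGANTCA matches start between -95 (Mmp20) and -35 (Mmp13), counted from the RefSeq start, whose next base upstream is -1. Mmp12, which lacks both, is added for contrast. Each line gives 120 bases up to the first annotated exon base or RefSeq start, on the gene's strand, from RefSeq on GRCm38.p6.
Mmp13, chr9:7272394-7272513, plus strand: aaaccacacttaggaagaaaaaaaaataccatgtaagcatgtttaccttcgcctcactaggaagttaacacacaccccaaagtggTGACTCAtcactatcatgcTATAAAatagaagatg
Mmp3, chr9:7445702-7445821, plus strand: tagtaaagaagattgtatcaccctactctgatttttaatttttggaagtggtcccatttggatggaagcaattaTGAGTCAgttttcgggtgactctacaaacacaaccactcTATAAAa
Mmp10, chr9:7502222-7502341, plus strand: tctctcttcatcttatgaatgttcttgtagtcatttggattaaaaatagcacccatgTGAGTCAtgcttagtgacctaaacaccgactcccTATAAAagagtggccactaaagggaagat
Mmp1a, chr9:7464021-7464140, plus strand: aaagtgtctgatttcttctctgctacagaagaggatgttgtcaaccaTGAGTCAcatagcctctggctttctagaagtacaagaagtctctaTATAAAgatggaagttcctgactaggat
Mmp1b, chr9:7388048-7388167, minus strand: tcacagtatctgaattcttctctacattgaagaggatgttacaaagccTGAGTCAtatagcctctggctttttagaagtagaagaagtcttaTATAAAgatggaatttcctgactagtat
Mmp20, chr9:7628111-7628230, plus strand: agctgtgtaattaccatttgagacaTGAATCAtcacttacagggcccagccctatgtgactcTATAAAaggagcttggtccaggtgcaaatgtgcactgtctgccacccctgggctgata
Mmp7, chr9:7691970-7692089, plus strand: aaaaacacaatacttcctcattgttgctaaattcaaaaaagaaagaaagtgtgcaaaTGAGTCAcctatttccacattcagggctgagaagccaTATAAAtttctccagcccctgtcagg
Mmp12, chr9:7344261-7344380, plus strand: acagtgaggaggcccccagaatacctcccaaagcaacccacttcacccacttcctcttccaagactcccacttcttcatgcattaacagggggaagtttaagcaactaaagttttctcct
The 3 tested genes Mmp13, Mmp3 and Mmp10 and the low or undetected Mmp1a, Mmp1b, Mmp20 and Mmp7 thus hold matches to both motifs. The TGANTCA match of Mmp20 is TGAATCA, outside the stricter core, and those of the others are TGACTCA or TGAGTCA. A match describes the letters and is no evidence of binding.

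Among the catalytic ADAM genes, the sheddases of broad expression were abundant and differed little. Adam10, which cuts Notch and cadherins, measured 25.5, 30.0 and 26.6 FPKM in wildtype mice and 30.7, 26.4 and 26.5 FPKM in knockout mice. Adam17, which releases TNF and sheds TNFR2, measured 10.5, 11.6 and 10.6 FPKM against 11.4, 10.1 and 10.1 FPKM. The groups of both genes overlap. Their log2 differences were 0.03 (95% interval -0.19 to 0.25) for Adam10 and -0.05 (-0.23 to 0.13) for Adam17 (limma, Benjamini-Hochberg adjusted p = 0.908 and 0.786). The intervals bound the size of a difference in either direction, and a difference within them was not detectable with 3 mice a group.

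Adam9, a sheddase with many substrates, measured 29.6, 30.6 and 30.2 FPKM in wildtype mice and 28.8, 27.1 and 26.5 FPKM in knockout mice. The groups do not overlap, yet the difference is small, at 91.2% of wildtype (limma, Benjamini-Hochberg adjusted p = 0.354). The row of Adam15, an adhesive sheddase, also names Dcst1, and its values of 46.4, 49.4 and 52.6 against 47.6, 40.5 and 45.4 FPKM cannot be assigned to either gene. Adam33, a protease of smooth muscle and fibroblasts, measured 8.36, 6.42 and 9.13 FPKM against 4.9996, 10.5 and 7.31 FPKM. Relative to its mean it had the widest spread among the knockout libraries of the 5 highest Adam genes, with a coefficient of variation of 36.1%, and the groups overlap (limma, Benjamini-Hochberg adjusted p = 0.862).

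Adam8, a protease of myeloid cells, had the lowest difference of the Adam family. It measured 1.62, 1.35 and 1.43 FPKM in wildtype mice and 1.05, 1.02 and 0.622 FPKM in knockout mice, 61.2% of wildtype. All knockout values are below all wildtype values, and knockout library 3 is the lowest. The log2 difference was -0.38 ± 0.12 (SE; limma, Benjamini-Hochberg adjusted p = 0.242). Beside it, the mean was lower for 11 of 13 tested macrophage genes, whose median log2 difference was -0.39. The other 2, Mertk and Cd14, had higher means. Summed levels of the macrophage list ranged from 517 to 581 FPKM in wildtype mice and from 322 to 451 FPKM in knockout mice. Of 4 tested neutrophil genes, 3 had lower and 1 higher means on the log2(FPKM + 1) scale, with a median log2 difference of -0.06. The part of either cell type in the Adam8 difference was not tested. In whole tissue, fewer cells of a type and less RNA per cell cannot be told apart.

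Adam19, a sheddase of neuregulins, measured 7.02 ± 0.138 and 6.42 ± 1.00 FPKM (SD, n = 3 each), while Adam28 and Adam12 averaged 0.277 and 0.242 FPKM and were not tested. The neuronal members Adam11, Adam22 and Adam23, which lack protease activity and act as receptors, had overlapping groups. Adam23 measured 4.01, 2.56 and 3.35 FPKM in wildtype mice against 2.85, 2.82 and 2.84 FPKM in knockout mice, and Adam22 0.725, 0.441 and 0.622 against 0.511, 0.676 and 0.653 FPKM. Of 20 Adam genes known from testis and sperm, 1 was tested, Adam1a with 1.12 ± 0.145 and 1.13 ± 0.412 FPKM (SD, n = 3 each), 8 are listed at 0 in all 6 libraries and the remaining 11 averaged at most 0.203 FPKM (Adam4).

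Every one of the 14 tested Adamts genes had a lower mean in the knockout, with a median log2 difference of -0.22, and 3 were lower without overlap. Over all rows tested 57.4% had a lower mean and 12.5% were lower without overlap. The procollagen N-proteinase Adamts2 (chromosome 11, 50602084 to 50807573), which trims collagen precursors so that fibrils can form, measured 11.4, 9.71 and 10.9 FPKM in wildtype mice and 8.38, 8.78 and 7.15 FPKM in knockout mice. Its relative Adamts14 measured 1.06, 0.937 and 1.04 FPKM against 0.758, 0.799 and 0.646 FPKM. Knockout values of both lie below all wildtype values, at 75.9% and 72.6% of wildtype. The log2 differences were -0.36 ± 0.10 and -0.21 ± 0.08 (SE; limma, Benjamini-Hochberg adjusted p = 0.218 and 0.290). The third procollagen enzyme, Adamts3, averaged 0.327 FPKM and was not tested. The substrate gene Col1a1 measured 179, 133 and 173 FPKM in wildtype mice and 110, 132 and 114 FPKM in knockout mice. Col3a1 measured 504, 398 and 462 against 342, 388 and 312 FPKM. For Col1a2, at 230, 164 and 215 against 132, 173 and 139 FPKM, the groups overlap. All of these are on the fibroblast list and were named after their values were seen.

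The enzymes that cut proteoglycans such as versican and aggrecan were more mixed. Adamts1 had the lowest log2 difference of all 41 genes, -0.43 ± 0.19 (SE; limma, Benjamini-Hochberg adjusted p = 0.320), from 4.85, 3.20 and 4.54 FPKM in wildtype to 2.56, 3.85 and 2.22 FPKM in knockout mice. Its groups overlap, since knockout library 2 is above wildtype library 2. Adamts15, the most abundant Adamts gene, measured 13.2, 18.9 and 16.7 FPKM against 16.2, 14.5 and 15.5 FPKM, with the knockout values inside the wildtype range. Adamts8 measured 4.17, 3.04 and 3.26 FPKM against 2.42, 2.86 and 3.23 FPKM (limma, Benjamini-Hochberg adjusted p = 0.409). Adamts4, an aggrecanase, measured 2.04 ± 0.212 and 1.53 ± 0.279 FPKM without overlap, and Adamts5 and Adamts9 1.73 ± 0.474 and 1.81 ± 0.0216 FPKM against 1.45 ± 0.317 and 1.76 ± 0.172 FPKM (SD, n = 3 each). Adamts20 averaged 0.214 FPKM and was not tested.

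Of the remaining Adamts genes, Adamts10, which acts on fibrillin microfibrils, was the highest, with 4.24, 3.67 and 4.89 FPKM in wildtype mice and 2.75, 4.62 and 2.62 FPKM in knockout mice. Knockout library 2 lies within the wildtype range and the others below it (limma, Benjamini-Hochberg adjusted p = 0.436). Adamts6, Adamts7, Adamts12, Adamts17 and Adamts19 had means between 0.564 and 1.32 FPKM in wildtype mice and between 0.493 and 1.19 FPKM in knockout mice, and all overlap. Adamts13, which cuts von Willebrand factor and is made in the liver, averaged 0.0393 FPKM, and Adamts16 and Adamts18 averaged 0.147 and 0.0365 FPKM.

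The ratio of summed inhibitor to summed protease RNA had a lower mean in the knockout, with overlapping groups. Summed FPKM of the 4 Timp genes was 179, 139 and 175 in the wildtype mice and 124, 145 and 117 in the knockout mice, and that of the 23 Mmp genes 182, 168 and 179 against 161, 159 and 145. The Timp sum therefore stood at 0.929 ± 0.0881 times the Mmp sum in wildtype and 0.829 ± 0.0748 times in knockout libraries (SD, n = 3 each), with overlapping values. Timp2 stood at 1.92 ± 0.149 times Mmp14 in wildtype and 1.75 ± 0.250 times in knockout libraries. Summed Adam FPKM was 139, 143 and 146 against 138, 132 and 130, with the row shared by Adam15 and Dcst1 counted in full. Summed Adamts FPKM was 51.7, 49.1 and 53.1 against 42.3, 45.6 and 39.6. These sums are descriptions and carry no test, and each is led by its few highest genes.

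Single libraries stood out in the order of values. Knockout library 3 had the lowest value of the 6 for 25 of the 41 genes, 61.0%, against 13.8% of all rows tested, and wildtype library 1 the highest for 19, 46.3%, against 23.8%. The median deviation of the 41 genes from their own mean over the 6 libraries was 0.15, -0.02 and 0.10 in the wildtype mice and -0.07, -0.02 and -0.18 in the knockout mice, on the log2(FPKM + 1) scale. Wildtype library 2 and knockout library 2 were thus alike in this measure. Without knockout library 3, 13 genes lay lower without overlap (31.7%, against 17.7% of all rows) and 35 had lower means (85.4%, against 59.4%). The median log2 difference was then -0.14, with -0.04 over all rows. In wildtype library 2 against knockout libraries 2 and 3, 26 of 41 had lower means (63.4%, near the 59.2% of all rows) and the median was -0.09, with -0.04 over all rows.

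Markers of connective tissue varied over the same libraries. The 13 fibroblast genes had median deviations of 0.42, -0.06 and 0.29 in the wildtype mice and -0.30, 0.01 and -0.34 in the knockout mice, and all 13 had lower knockout means with a median log2 difference of -0.43. Their summed level ranged from 2054 to 2808 FPKM in wildtype mice and from 1678 to 2148 FPKM in knockout mice. Of 10 endothelial genes all had lower means (median -0.34), while of 11 epithelial genes 3 had lower and 8 higher means (median 0.11). The epithelial list had its lowest deviations, -0.24 and -0.23, in wildtype library 1 and knockout library 2. The 10 smooth muscle genes all had lower means (median -0.22), as did 8 of 9 enteric glia and neuron genes (median -0.21). These 2 lists were lowest in knockout library 1, at -0.42 and -0.33. In knockout library 3, where the members were lowest, they stood at 0.003 and -0.015. None of these marker genes was called in limma. At an unadjusted p under 0.05, 11 fibroblast, 6 endothelial and 0 epithelial genes were lower, against 9.91% of all rows. The smooth muscle list had 0 such genes and the enteric glia and neuron list 1. Skin, hair, skeletal muscle and adipocyte lists had median log2 differences of -1.21, -1.71, -2.49 and -0.72. The part of any of these tissues in the differences of the proteases was not tested. The hair list includes a row named for both Krt73 and Krt8, with a log2 difference of -0.003. Krt8 had been chosen for the epithelial list, which therefore lacks it. With the mean skin level as a covariate 32 of the 41 genes had a negative genotype coefficient (78.0%, against 60.1% of all rows), with a median of -0.14. None was called in limma, and 7 were lower at an unadjusted p under 0.05 (17.1%, against 6.58% of all rows).

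**Figure D4:**
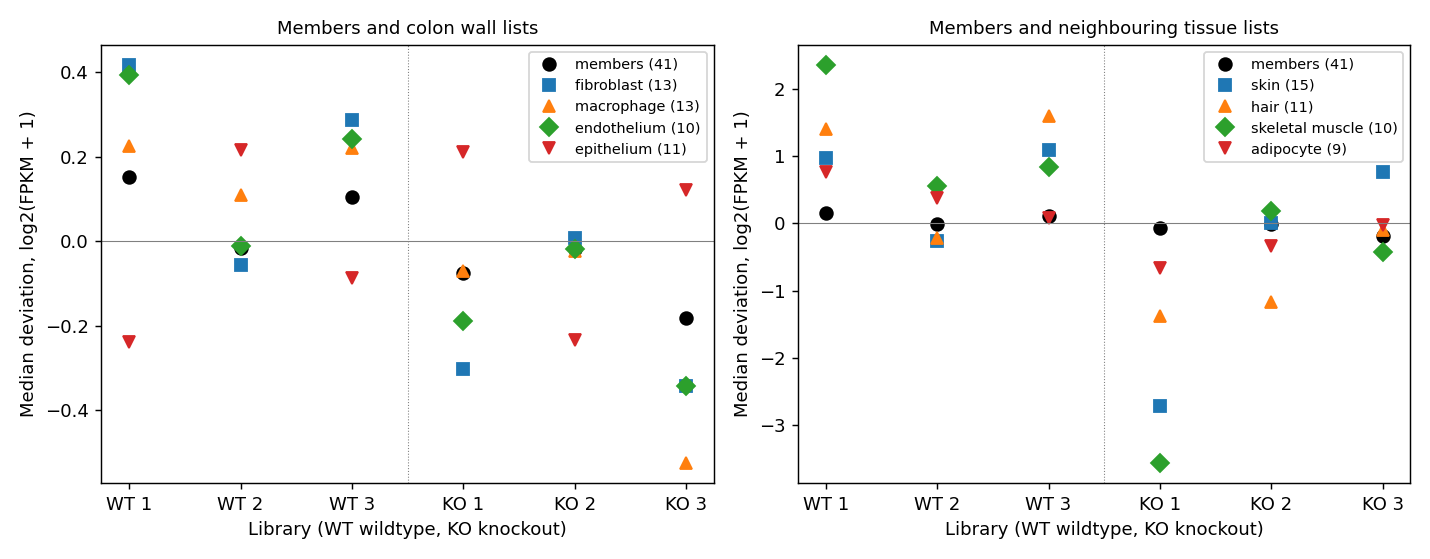
Median deviation of each gene list from its mean over the 6 libraries, on the log2(FPKM + 1) scale, with 1 column of points per library, wildtype (WT) and knockout (KO); numbers in brackets are genes. On the left the 41 members and the fibroblast, macrophage and endothelial lists are highest in wildtype 1 or 3 and lowest in knockout 3, while the epithelial list is not. The smooth muscle list and the enteric glia and neuron list, lowest in knockout 1, are not drawn. On the right skin and skeletal muscle genes span a far wider range and are lowest in knockout 1.

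Genes that activate, assist or are cut by these enzymes were read from lists chosen for their known roles. Over all rows tested, 9.91% were lower and 6.3% higher at an unadjusted p under 0.05, against which the counts of each list can be read. Of 9 tested activators none was called in limma (3 lower and 0 higher at an unadjusted p under 0.05). Plat, tissue plasminogen activator, measured 11.1, 10.1 and 12.05 FPKM in wildtype mice and 7.44, 8.60 and 7.43 FPKM in knockout mice, without overlap and with the smallest p of its list (log2 difference -0.45 ± 0.09, SE; limma, Benjamini-Hochberg adjusted p = 0.159). The most abundant were Klk1, a tissue kallikrein, with 622 ± 66.8 and 706 ± 160 FPKM, and Bsg, an inducer of metalloproteinases, with 431 ± 21.2 and 442 ± 51.6 FPKM (SD, n = 3 each). Of 8 tested other inhibitors 7 had lower means and none was called (2 lower and 0 higher at an unadjusted p under 0.05). Serpine2, which blocks plasminogen activators and thrombin, measured 23.6, 14.1 and 21.7 FPKM against 10.2, 14.8 and 12.3 FPKM, with overlap. Cst3, a cysteine protease inhibitor, measured 379 ± 41.5 and 332 ± 18.6 FPKM, and Slpi, a leukocyte protease inhibitor also made by skin, 114 ± 36.4 and 67.6 ± 27.8 FPKM.

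Partners of ADAM10 and ADAM17 had 8 tested genes, of which none was called (2 lower and 0 higher at an unadjusted p under 0.05). Rhbdf1, an inactive rhomboid that carries ADAM17 to the cell surface, measured 14.1, 14.8 and 14.9 FPKM in wildtype mice and 11.9, 11.5 and 11.8 FPKM in knockout mice, with a log2 difference of -0.29 ± 0.06 (SE; limma, Benjamini-Hochberg adjusted p = 0.159). Its groups are clearly apart although ADAM17 RNA itself was not. Rhbdf2, its relative, named after its values were seen, measured 6.39, 6.26 and 6.76 FPKM against 5.47, 5.29 and 5.77 FPKM. The tetraspanins Tspan15 and Tspan14, partners of ADAM10, measured 40.4 ± 2.94 and 21.1 ± 0.314 FPKM in wildtype mice and 44.3 ± 4.43 and 19.9 ± 1.30 FPKM in knockout mice (SD, n = 3 each).

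Of 9 tested related proteases and helper proteins none was called (2 lower and 1 higher at an unadjusted p under 0.05). Adamtsl5, an ADAMTS-like protein without a protease domain, came closest, with 6.99, 7.77 and 7.81 FPKM in wildtype mice and 5.12, 5.21 and 5.03 FPKM in knockout mice (log2 difference -0.48 ± 0.07, SE; limma, Benjamini-Hochberg adjusted p = 0.073). The meprins, metalloproteases of the epithelial brush border, had higher means in the knockout. Mep1b measured 17.5, 24.8 and 17.7 FPKM against 30.9, 25.9 and 32.5 FPKM, without overlap, and Mep1a 67.2, 87.7 and 73.7 against 95.1, 81.0 and 94.98 FPKM (limma, Benjamini-Hochberg adjusted p = 0.218 and 0.348). Of 20 tested rows of proteins that ADAM enzymes shed, Tnfrsf1b was the only call, 15 others had lower and 4 higher means, and 7 lower and 1 higher, Tnfrsf1b included, had an unadjusted p under 0.05. Ereg, an epidermal growth factor receptor ligand named after its values were seen, fills 2 rows that differ. In 1 row Ereg measured 4.91, 4.47 and 5.38 FPKM against 3.25, 3.20 and 3.19 FPKM, without overlap (limma, Benjamini-Hochberg adjusted p = 0.119). In the other Ereg measured 4.90, 2.23 and 4.16 FPKM against 2.95, 2.93 and 3.23 FPKM, with overlap (limma, Benjamini-Hochberg adjusted p = 0.667).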

How the data were processed

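Messenger RNA of the distal colon was measured in 3 wildtype and 3 TNFR2-knockout mice, grouped by the labels' titles. The authors used Tophat2 and Bowtie2 for alignment, Cufflinks for assembly and Cuffdiff 2 for testing, per the design text of the series, on mm10, as the submitters' processing notes state. The deposited table gives FPKM per library and per group, per the file headers, with the authors' p-value, adjusted p-value and fold change per row, the last on a log2 scale with placeholders where a group is at 0. The sources used here give no release numbers, annotation, strand setting or scaling of the libraries.

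Members and gene lists were chosen with earlier results of these data known. Named rows with a mean of at least 0.5 FPKM entered limma 3.58.1 on the log2(FPKM + 1) scale (R 4.3.3; intensity trend, robust moderation, no covariate), with p-values adjusted by Benjamini-Hochberg over all 14564 rows and called under 0.05. Fold changes on this scale understate those of low genes. The fit was tested on simulated data, with 200 changed rows per size drawn from the better expressed genes. It recovered 35% of log2 changes of 0.5, 79.5% of changes of 1 and 95.5% of changes of 2. Differences of the size seen in the members would thus often be missed. Of the 24617 rows, the 23108 with a gene name were used. Members named with values per library were the Timp genes, Adam10, Adam17, the 5 highest of each other family, the 6 highest and 6 lowest differences and the 8 smallest p; other members were named to account for all, after their values were seen. Of each pathway list, the called genes were named, or else the 2 highest and the one of smallest p. Positions are from GENCODE M21 on GRCm38. The deposited locus overlapped the GENCODE position for all 78, but was much wider than the gene in some, as for Timp1, Timp3, Timp4 and Adam4. RefSeq promoters were found for 48 of the 78, and in 36 the bases after the start were found in a GENCODE transcript of the gene. Tables were read with Python 3.11.15 and pandas 2.3.3 and drawn with matplotlib 3.10.9. Alternatives were another pseudocount, filter, scaling, variance model and set of rows, a replicate block, a skin covariate and leaving out libraries.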

Additional observations from a re-analysis of the deposited data

How the results depend on the processing

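No tested matrix protease or inhibitor was called in limma in any of the 15 alternative fits with a test, with smallest Benjamini-Hochberg adjusted p-values of 0.0952 to 0.576 against 0.218, and none of the other pathway genes besides Tnfrsf1b was called. Quantile normalization lowered the count of genes lower without overlap from 12 to 7 and the median log2 difference from -0.15 to -0.064. The share of all rows lower without overlap moved with it, from 12.5% to 7.92%. Leaving out single libraries moved the count of members between 12 and 24 (24 without wildtype 2, 20 without knockout 2) and their median between -0.23 and -0.12. The share of all rows lower without overlap was then between 15.2% and 27.2%. Of the 25 named members 19 kept their direction under every alternative, and the other 6, none called, changed sign in some. With the skin covariate Adam10 was at -0.070, Adam33 at 0.15, Mmp15 at -0.038 and Mmp17 at 0.013. In wildtype 2 against knockout 2 and 3, these were at -0.18, 0.40, -0.17 and 0.22. Leaving out single libraries gave Adam10 -0.044 to 0.092, Adam22 -0.054 to 0.076, Adam33 -0.33 to 0.13, Adamts15 -0.20 to 0.044 and Mmp15 -0.045 to 0.094. For these the cause was not tested.

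The replicate number as a block left 0 members called in limma, with a smallest Benjamini-Hochberg adjusted p of 0.554. At an unadjusted p under 0.05 there were 6 members in place of 12, all 6 lower (14.6%, against 4.99% of all rows). The count over all rows fell as well, from 2360 to 1242. Deviations of libraries with the same number correlated at -0.38, -0.34 and 0.21 across genes, and wildtype 2 correlated best with knockout 1 (0.47). The deviations were taken from each group's own mean, so they cannot tell whether mice of the same number shared a litter or batch. Depth is unknown from FPKM, and genes under 1 FPKM are the least precise.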

Other observations

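Below the level that was tested, Adam4, a testis gene, measured 0.139, 0.173 and 0.136 FPKM in wildtype mice and 0.241, 0.278 and 0.252 FPKM in knockout mice, and Adamts18 0.0292, 0 and 0.0227 FPKM against 0.0452, 0.0573 and 0.0644 FPKM. In both every knockout value is above every wildtype value. In Adamts16 and Adamts3 every one is below. Adamts16 measured 0.260, 0.171 and 0.149 FPKM against 0.0480, 0.1304 and 0.122 FPKM, and Adamts3 0.445, 0.319 and 0.386 FPKM against 0.298, 0.304 and 0.210 FPKM. These 4 genes are all the untested members whose groups do not overlap. Without the filter on the mean, tested genes included, 14 of 68 members lay lower without overlap (20.6%, against 11.2% of 19631 rows). In the same setting 3 of 68 members lay higher, against 1622 of the 19631 rows. The 4 genes were picked after their values were seen and were too low for the test. The deposited locus of Adam4 runs from 81358971 to 81485137 on chromosome 12, far wider than the gene at 81419443 to 81421946. Whether reads of other genes entered its value was not tested.

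Reck, a membrane-anchored inhibitor of metalloproteinases picked the same way, measured 5.48, 3.97 and 5.07 FPKM in wildtype mice and 3.52, 4.33 and 3.41 FPKM in knockout mice, with wildtype library 2 below knockout library 2 as in Timp2, Adamts1 and Adam33.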
